A study of Homo sapiens with 12 samples.

Results

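The response of the T24 line labelled NS1 to the inducer 5-Ad-IAA was measured in 6 of the 12 libraries of the series: 3 from NS1 cells without treatment and 3 from NS1 cells given 5-Ad-IAA. The members were chosen by their labels alone, and each treated library was set against the untreated library with the same replicate number. T24 cells descend from a human bladder tumour and are a standard laboratory line known for an activated HRAS gene. The other 6 libraries, from the line labelled WT with and without 5-Ad-IAA, served to show where the response of NS1 cells differed from that of cells given the same compound. All 12 libraries came from poly(A) RNA of cultured T24 cells. What NS1 stands for, which components of the system are present in WT cells and whether the NS1 line is 1 clone are not given in the labels. Inducer dose and treatment time are not used here. The labels also do not say whether replicates were separate cultures. The p-values of the main fit measure the scatter of the paired differences in these samples, estimated over both lines. That scatter may be technical.

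AlissAID is a system that removes untagged endogenous proteins: a small binding protein recognises the target and carries a degron, and an auxin-type inducer brings the degron to an SCF ubiquitin ligase, which marks the complex for the proteasome. 5-Ad-IAA is an auxin derivative made to work with an engineered auxin receptor at low concentration. A synthetic HRAS-binding protein carries the name NS1 too, but the labels do not link the line to it. RAS proteins are membrane-bound switches that pass growth factor signals to the RAF, MEK and ERK kinases and to PI3K and AKT. Through these pathways they are known to control proliferation, ribosome production, cell survival, nutrient handling, adhesion and the secretion of growth factors and proteases.

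The 6 NS1 libraries held 10688691 to 19425817 counts. The 10 highest genes took 6.55% to 7.17% of the counts in untreated and 8.72% to 9.08% in treated libraries. Replicate 1 stood apart from replicates 2 and 3 in both groups: over genes its profile differed from theirs by a chi-square of 17.6 to 25.1 per degree of freedom, against 3.03 and 5.46 between replicates 2 and 3. Of the 10 markers of the urothelial line, KRT7, KRT8, KRT18, KRT19, GATA3, KRT17 and EPCAM were detected, while the junction protein gene CDH1 and the keratin genes KRT5 and KRT20 stayed at or below 3 counts in every library. The summed level of the 10 was 4202 to 7383 CPM (counts scaled to a common library size, here by the library total) without and 5044 to 10355 CPM with inducer. The marker levels that follow here are on the same scale, and CPM values of single genes further on are scaled by edgeR's TMM factors. Markers of other cell types were mostly at or below the floor of 3 counts: 6 of 9 for fibroblasts, including COL1A2, COL3A1, DCN and LUM, 8 of 10 for leukocytes, including PTPRC and CD3E, and 5 of 7 for endothelium, including CDH5 and KDR. Of 6 neuronal and glial markers 2 were, with a sum of 249 to 343 CPM without and 259 to 296 CPM with inducer, nearly all from TUBB3 (mean 270.5 and 245 CPM) and MBP (35.4 and 33.5 CPM). The summed leukocyte markers were at 8.51 to 15.9 CPM and 11 to 15.2 CPM, mainly from CD68 (mean 12.5 and 12.1 CPM) and CD14 (0.720 and 1.31 CPM). The summed fibroblast markers went from 2.62 to 5.57 CPM without inducer to 8.44 to 20.8 CPM with it, nearly all from PDGFRB (mean 2.28 and 11.2 CPM) and COL1A1 (2.04 and 3.68 CPM). The endothelial markers went from 0.256 to 1.3 CPM to 1.39 to 3.8 CPM, from PECAM1 (mean 0.204 and 1.84 CPM) and VWF (0.411 and 0.600 CPM). In bulk RNA, a change in the number of cells of a kind and a change in RNA per cell cannot be told apart.

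HRAS (ENSG00000174775.17, chromosome 11) was read first because HRAS is the protein that the binder named NS1 recognises. Its transcript stood at 184, 178 and 194 CPM in untreated replicates 1, 2 and 3 and at 158, 145 and 166 CPM in the treated ones, an order of replicates used throughout. The groups did not overlap, and each treated library was below its partner. On the log2 scale the change was -0.25 with an SE of 0.086, and edgeR's quasi-likelihood test gave an adjusted p of 0.0481. The call was lost with no replicate block (adjusted p = 0.372) and without replicate 1 (0.249) or replicate 2 (0.164). A transcript level does not check the removal of a protein. The difference from the change in WT cells was -0.26 (adjusted p = 0.179), not past the threshold of 0.05.

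With 5-Ad-IAA, NS1 cells raised 2318 and lowered 2278 of 17775 genes tested, which is 13.0% and 12.8% of them and 25.9% together, at an adjusted p under 0.05. A change of at least 2-fold was seen in 400 called genes that rose (2.25%) and 125 that fell (0.703%), so that large rises were more frequent than large falls. The typical called gene moved modestly: the median absolute log2 fold change was 0.48 over the 4596 called genes and 0.20 over all genes. Of the called genes, 99.4% moved the same way in all 3 pairs, which is in part fixed because the calls come from a model of these pairs. Over all genes tested the share was 57.6% in NS1 cells and 18.6% in WT cells. The differences of the 3 pairs correlated across all genes with Pearson coefficients of 0.56 to 0.57, a description over genes, which are not replicates. The CPM of the 2 groups did not overlap for 27.2% of genes. Calls were more frequent among protein-coding genes (15.3% higher, 14.5% lower) than among long non-coding RNAs (7.63% and 7.75%) or pseudogenes (5.83% and 8.44%). The size of change did not follow this order: the median absolute log2 fold change was 0.191, 0.232 and 0.189 in these classes. Calls were also more frequent at higher levels, from 5.25% higher and 2.42% lower under 1 CPM to 17.7% and 17.9% from 100 CPM upward. Whether level accounts for the difference between classes was not tested. Scaling by library totals in place of TMM gave 1781 rises and 3025 falls. The model holds a term for each replicate number, called the replicate block here. When it was left out 1093 genes were called (6.15%; 490 higher, 2.76%, and 603 lower, 3.39%), every one of them also among the 4596. Of these, 190 rose (1.07%) and 63 fell (0.354%) by at least 2-fold. Without replicate 1 there were 1822 calls.

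In WT cells, given the same compound, no gene was called by edgeR, with 476 at an unadjusted p under 0.05, and none by DESeq2, with 68. Without replicate 3, 437 genes were called in WT cells, 167 higher and 270 lower. The genes called in NS1 cells had a median absolute log2 fold change of 0.064 in WT cells. The test of the difference between the lines, the interaction of genotype and inducer, called 2495 genes (14.0%), 1240 higher (6.98%) and 1255 lower (7.06%), of which 2436 were also called in NS1 cells with the same sign. That is 53% of the genes called in NS1 cells. Leaving out the block left 4 interactions (0.0225%), 2 higher (0.0113%) and 2 lower (0.0113%), and without replicate 1 there were 417.

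The largest rise was in MGP. This gene (ENSG00000111341.9, chr12:14881181-14885926), an extracellular inhibitor of calcification, had 0.185, 2.54 and 1.63 CPM without inducer and 4.47, 72.4 and 83.7 CPM with it. All 3 pairs rose steeply although replicate 1 lay far below the others in both groups, and the fold change was 35.1 (log2 5.13, SE 0.16, adjusted p = 1.1e-10). C12orf60 overlaps MGP on the opposite strand by 76 exon bases and rose with it (3.32 log2, adjusted p = 5.22e-06). The use of strand in counting is not given in the sources used here, so reads of such a pair may be shared. IDO1 (chromosome 8), which starts the breakdown of tryptophan to kynurenine, had 0.926, 0.509 and 0.769 CPM without inducer and 12.5, 8.64 and 10.3 CPM with it, a 14.2-fold rise (log2 fold change 3.82 with SE 0.21, adjusted p = 4.31e-08). DIO2 (chromosome 14), the deiodinase that activates thyroid hormone, had 1.23, 6.18 and 4.33 CPM without inducer and 17.1, 49.7 and 57 CPM with it. Replicate 1 was lowest in both groups, and every treated library was above every untreated one (log2 fold change 3.40, SE 0.14, adjusted p = 2.97e-09).

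ELF3, BMF and SLC4A4 were among the other steep rises. ELF3 (chromosome 1), an epithelium-specific ETS factor that shares 664 exon bases with ELF3-AS1, stood at 0.247, 2.62 and 1.83 CPM without and 3.48, 17.6 and 19.5 CPM with inducer, again with replicate 1 lowest in both groups (log2 fold change 3.11 with SE 0.20, adjusted p = 1.26e-07). BMF (chromosome 15), a BH3-only protein that promotes apoptosis, stood at 2.9, 2.69 and 2.31 and 27.1, 13.4 and 17.1 CPM (log2 fold change 2.86 with SE 0.17, adjusted p = 6.64e-08). The untreated replicates were close to each other and all 3 treated ones were well above them. BMF-AS1 (chr15:40088832-40089386) shares 461 exon bases with BMF and rose by 2.76 log2 (adjusted p = 0.000287). SLC4A4 (chromosome 4), a sodium bicarbonate cotransporter, went from 2.41, 0.945 and 1.15 to 10.7, 8.47 and 9.05 CPM (log2 fold change 2.60 with SE 0.21, adjusted p = 1.08e-06).

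The remaining genes among the 15 highest were nearly silent without inducer. RASGRP1, an exchange factor that loads RAS with GTP, had 0.185, 1.38 and 0.577 CPM without inducer and 2.55, 11.2 and 8.8 CPM with it (adjusted p = 1.24e-06). FPR3, a formyl peptide receptor, had 0.0617, 0.436 and 0.481 and then 2.18, 3.06 and 4.4 CPM (adjusted p = 2.48e-05). PECAM1, an adhesion molecule best known from endothelium, had 0.0617, 0.363 and 0.192 and then 1.14, 1.83 and 2.82 CPM (adjusted p = 0.000109), while the endothelial markers CDH5, KDR, TEK, CLDN5 and EMCN stayed at or below the floor of 3 counts. The others were the ankyrin gene ANK1 (2.81 log2), the cotransporter family member SLC12A8 (chr3:125082636-125212864, 2.75), RARRES1, which shares 331 exon bases with MFSD1 (2.71), and the phosphatase PHOSPHO1 (chr17:49223362-49230766, 2.51). Every gene of these 15 was called also with no replicate block and without any one replicate. In WT cells their log2 fold changes ran from -0.65 for SLC4A4 to 0.78 for C12orf60, and none was called.

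**Figure D1:**
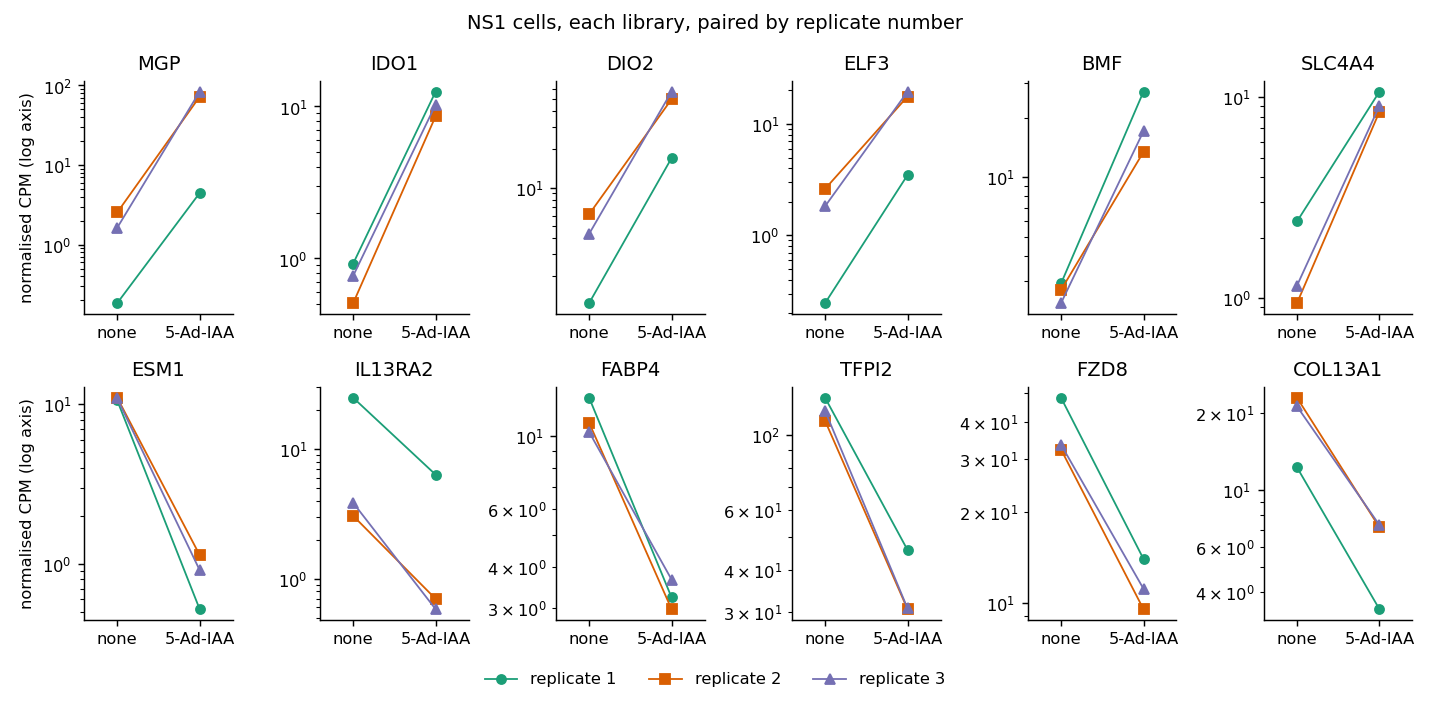
Normalised CPM (log axis, a separate scale in each panel) of 6 of the 15 highest and 6 of the 15 lowest genes in the 6 NS1 libraries, with a line joining libraries of the same replicate number. All 3 lines slope the same way in every panel, and replicate 1 starts far from the others for MGP, ELF3 and IL13RA2.

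The steepest fall was in ESM1 (chromosome 5), which encodes endocan, a proteoglycan secreted by endothelium and by tumour cells. It stood at 10.6, 11 and 10.9 CPM without inducer and at 0.52, 1.13 and 0.913 CPM with it, a fall of 13.3-fold (log2 fold change -3.73 with SE 0.19, adjusted p = 2.56e-08). The untreated libraries were almost equal and the groups were far apart. TFPI2 (chromosome 7), an inhibitor of matrix-degrading serine proteases, fell from 129, 110.0 and 118 CPM to 45.7, 30.6 and 30.7 CPM (log2 fold change -1.75 with SE 0.091, adjusted p = 2.6e-08). GNGT1 (chr7:93591573-93911265) shares 44 exon bases with TFPI2 on the opposite strand and also fell, with a log2 fold change of -1.64. FZD8 (chr10:35638249-35642278), a receptor for Wnt ligands, went from 48.1, 32.3 and 33.6 to 14, 9.51 and 11.1 CPM (log2 fold change -1.72 with SE 0.096, adjusted p = 4.31e-08).

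CSF3 (chr17:40015361-40017813), the granulocyte colony-stimulating factor, had 0.926, 4.8 and 4.14 CPM without inducer and 0.26, 0.698 and 0.83 CPM with it (log2 fold change -2.40 with SE 0.25, adjusted p = 9.38e-06). Untreated replicate 1 was far below the other untreated ones but still above every treated library, and without the block CSF3 was not called (adjusted p = 0.397). IL13RA2 (chromosome X), a decoy receptor for interleukin 13, stood at 24.9, 3.05 and 3.85 CPM and then at 6.34, 0.698 and 0.581 CPM. Replicate 1 after treatment was above untreated replicates 2 and 3, so the groups overlapped although each pair fell (log2 fold change -2.06 with SE 0.17, adjusted p = 1.17e-06; adjusted p = 0.173 with no block). The interstitial collagenase gene MMP1 had 1.73, 4.65 and 3.56 and then 0.364, 0.698 and 1.49 CPM (-1.98 log2, adjusted p = 0.000142; 0.594 with no block). For the stromelysin gene MMP3 the values were 0.741, 4.87 and 4.23 and 0.312, 1.31 and 1.16 CPM (-1.78 log2, adjusted p = 7.85e-05; 0.606 with no block), and here untreated replicate 1 lay among the treated libraries. COL17A1, a transmembrane collagen of hemidesmosomes, fell from 2.16, 1.82 and 1.44 to 0.676, 0.175 and 0.166 CPM (adjusted p = 0.000434). COL13A1 (chr10:69801867-69964275), a transmembrane collagen of adhesion sites, fell from 12.3, 23 and 21.3 to 3.43, 7.16 and 7.31 CPM (adjusted p = 1.99e-07).

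FABP4 (chr8:81478419-81483263), a fatty acid carrier under PPARG control, fell from 13.1, 11 and 10.3 to 3.22, 2.97 and 3.65 CPM (log2 fold change -1.82 with SE 0.16, adjusted p = 2.44e-06). The antisense transcript TMEM108-AS1 (-2.27 log2), the purple acid phosphatase ACP7 (chr19:39083913-39111493, -2.10), the glycerol kinase gene GK3 (chr4:165277812-165279679, -1.80) and the lysosomal ubiquitin ligase gene RNF152 (-1.58) completed the 15. Calls were lost with no replicate block for ACP7 (adjusted p = 0.058), GK3 (0.0639) and GNGT1 (0.0833) as well as for CSF3, IL13RA2, MMP1 and MMP3. Without replicate 1 the call of RNF152 was lost (adjusted p = 0.0679). In WT cells the log2 fold changes of the 15 ran from -0.55 for RNF152 to 0.30 for MMP3, none of them called.

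**Figure D2:**
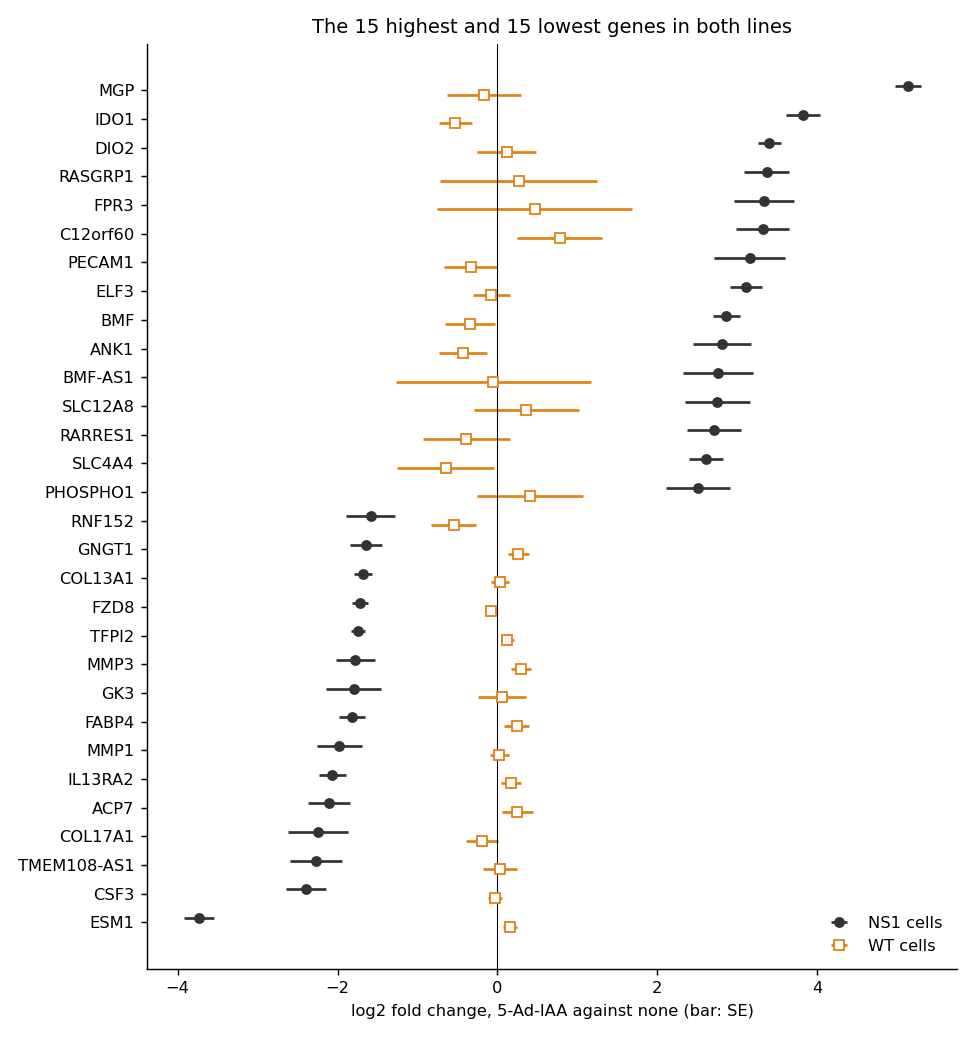
Log2 fold change with 5-Ad-IAA (x axis) of the 15 highest and 15 lowest genes in NS1 cells (filled circles) and in WT cells (open squares), with bars of 1 SE from the edgeR fit. The circles lie beyond 2.5 on the right and beyond -1.5 on the left, while the squares lie around 0; the genes were chosen for the position of their circles.

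Among called genes that moved the same way in all 3 pairs, the ferritin heavy chain gene FTH1 (chromosome 11), which stores iron, gained most in mean CPM. Its 5351, 5979.6 and 6129 CPM became 13316, 11555 and 13420.0 CPM (log2 fold change 1.13 with SE 0.099, adjusted p = 1.81e-06). BEST1 shares 1267 exon bases with FTH1 on the opposite strand and followed it, with 4124, 4491 and 4664 CPM and then 10173, 8705 and 10195 CPM, so its value is uncertain. FTH1, BEST1 and the FTH1 pseudogenes together took 1.46% to 1.56% of all counts without and 2.89% to 3.48% with inducer. The elongation factor gene EEF1A1 had 11913, 12368 and 12813 and then 14786, 14264 and 15737 CPM (0.27 log2, adjusted p = 0.0351), and its near-identical pseudogenes EEF1A1P5 (chr9:133019486-133020874) and EEF1A1P6 (chr7:22510616-22511999) carried similar counts and changes, so reads may be split between the 3. Fibronectin (FN1) had 3536, 4009 and 3804 CPM without inducer and 4665, 7208 and 5445 CPM with it (0.59 log2, adjusted p = 0.0371). Genes of the actin and membrane skeleton gained too: filamin A (FLNA, 0.27 log2, adjusted p = 0.0307), non-muscle myosin heavy chain MYH9 (chr22:36281277-36388067, 0.44, 0.00297) and AHNAK (0.56, 0.00538). The keratin gene KRT7, which shares 282 exon bases with KRT7-AS, went from 2003, 3927 and 4030.4 to 2543, 5556 and 6019.9 CPM (0.47, 0.000934); its groups overlapped. Without replicate 1 the calls of EEF1A1 (adjusted p = 0.348) and its pseudogenes, FN1 (0.0857), FLNA (0.275), MYH9 (0.0592) and AHNAK (0.113) were lost. Without replicate 2 those of EEF1A1 (0.103), its pseudogenes, FN1 (0.176) and FLNA (0.201) were lost. Of the 10 genes with the largest gain, FTH1 and BEST1 were called without the block and the others were not.

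Among called genes that moved the same way in all 3 pairs, transglutaminase 2 (TGM2), which cross-links proteins, lost most in mean CPM. It had 1982, 3231 and 3374 CPM without inducer and 1307, 2679 and 2411 CPM with it (log2 fold change -0.45 with SE 0.085, adjusted p = 0.00117; adjusted p = 0.436 with no block and 0.1 without replicate 1). Its groups overlapped, and it shares 394 exon bases with RPRD1B. The alpha tubulin gene TUBA1B (chr12:49127782-49131397) went from 1919, 2222 and 2249.5 to 1360.1, 1422 and 1429 CPM (log2 fold change -0.60 with SE 0.079, adjusted p = 6.49e-05), and TUBA1B-AS1 overlaps it by 1309 exon bases and followed it. TUBA1C (chr12:49188736-49274603; -0.41 log2) and the beta tubulin gene TUBB (-0.28 log2) also fell, and reads of the closely similar tubulin genes may be split among them. CD44 (chr11:35138870-35232402), the hyaluronan receptor, fell in every pair, from 891, 818 and 789 to 597, 499 and 450.3 CPM (log2 fold change -0.70 with SE 0.077, adjusted p = 1.41e-05). The cytosolic chaperones HSP90AA1 (chr14:102080738-102139699; -0.45 log2), HSP90AB1 (-0.30) and HSPA8 (-0.27) and the chromatin protein gene HMGA1 (chr6:34236873-34246231; -0.41) completed the 10 largest losses. Without replicate 1, calls were also lost for TUBB (adjusted p = 0.156), HSPA8 (0.257) and HSP90AB1 (0.131), and these 3 were lost without replicate 2 as well (0.0906, 0.0887 and 0.0512). With no block they were lost for TGM2, TUBB (0.156), HSPA8 (0.189), TUBA1C (0.0816), HSP90AB1 (0.0786) and HMGA1 (0.249).

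For gene lists, the counts of called members stand against 13.0% of all genes called higher and 12.8% called lower, and the median log2 fold change of a list against 0.0047 for all genes. Of 92 list counts, 1 per list and direction, 69 moved by over 1.5 times without the replicate block, where 2.76% and 3.39% of all genes were called higher and lower, and 46 without replicate 1. Counts with no block are therefore given beside the others, with those without replicate 1 where they differ by over 1.5 times. They stand against the counts over all genes under the same setting, 2318 higher and 2278 lower in the main fit. These were 1008 and 814 without replicate 1, 1615 and 1568 without replicate 2, and 2465 and 2211 without replicate 3. DESeq2 gave 1484 and 1494, library totals 1781 and 3025, and the NS1 libraries alone 2950 and 2926. The share of called members ranged from 0% in several lists to 90% in the ERK output genes, as the plot of list shares shows.

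Genes of the antioxidant programme rose. NRF2 is a transcription factor that is held down by KEAP1 and, when released, drives genes for detoxification, glutathione and NADPH supply and iron handling. Of 25 tested targets of 27 on the list, 15 were called higher and 0 lower, with a median log2 fold change of 0.45 against -0.025 in WT cells. There were 8 called higher without the block and 13 without replicate 1. The export pump gene ABCC3 had 4.01, 9.45 and 8.27 CPM without inducer and 14.1, 30.9 and 37.1 CPM with it (log2 fold change 1.89 with SE 0.11, adjusted p = 7.26e-08; adjusted p = 0.103 with no block). The aldo-keto reductase genes, which reduce steroids and reactive carbonyls, rose together: AKR1C1 from 16.2, 27.6 and 23.6 to 52.3, 62.2 and 92.6 CPM, AKR1C2 from 6.48, 10.0 and 9.43 to 19.1, 19.4 and 34.9 CPM and AKR1C3 from 9.81, 10.1 and 12.2 to 33.1, 25.9 and 34.9 CPM. Their log2 fold changes were 1.6, 1.47 and 1.55 (adjusted p = 8.28e-07, 6.39e-06 and 1.32e-06), and because the 3 sequences are very similar reads may be shared among them.

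Within the antioxidant list the ferritins and the quinone and haem enzymes rose, while most genes of the glutathione and thioredoxin arm did not pass the test. HMOX1, which degrades haem, went from 97.4, 87.4 and 76 to 256, 136 and 162 CPM (log2 fold change 1.05 with SE 0.11, adjusted p = 7.34e-06), and NQO1, a quinone reductase, from 297, 442 and 420.4 to 489, 597 and 734 CPM (log2 fold change 0.65 with SE 0.087, adjusted p = 6.92e-05). For both genes every treated library was above every untreated one. The thioredoxin reductase gene TXNRD1 had a log2 fold change of 0.23, the cystine transporter gene SLC7A11 0.08, the glutamate-cysteine ligase modifier gene GCLM -0.11, thioredoxin (TXN) -0.13 and sulfiredoxin (SRXN1) -0.18, and none of these was called, although TXNRD1 was without replicate 3 (adjusted p = 0.0159). TGACNNNGC, the core of the antioxidant response element, was found on either strand in the 250 bases before the start in 4 of 18 listed genes with a promoter entry (22.2%) and 1 of 11 called ones, against 11.9% of 11052 tested genes matched by symbol.

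Most lysosome genes on the list rose. Lysosomes digest proteins, lipids and sugars with acid hydrolases, and TFEB and TFE3 are the factors best known to switch on their genes. Of 35 tested of 36 lysosome and autophagy genes, 21 were called higher and 1 lower, the latter being the cathepsin gene CTSL (-0.22 log2, adjusted p = 0.046), whose call was lost without any one replicate. The median log2 fold change was 0.36, against -0.02 in WT cells, with 2 called higher and 0 lower with no block and 11 and 0 without replicate 1. The cathepsin gene CTSD, a major aspartic protease of lysosomes, had 545, 734 and 768 CPM without inducer and 1154, 1436 and 1619 CPM with it (log2 fold change 1.04 with SE 0.078, adjusted p = 4.97e-07). CTSH went from 5.68, 11.2 and 11 to 16.9, 30.2 and 33.7 CPM (log2 fold change 1.54 with SE 0.11, adjusted p = 3.61e-07). These 2 were the members called with no block. The peptidase TPP1 (0.72 log2), progranulin (GRN, 0.68), the protective protein cathepsin A (CTSA, 0.59) and the autophagy gene GABARAPL1 (1.06) also rose, as did the autophagy receptor gene SQSTM1, with 553, 753 and 752 CPM without inducer and 1055, 1101 and 1203 CPM with it (adjusted p = 2.93e-05). The factor genes TFEB (0.55 log2) and TFE3 (0.08) were not called.

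Promoters of 2 of these genes are shown because lysosomal members moved together and several hold the same letters. CACGTG, the E-box bound by TFEB and by other factors such as MYC and USF, was found in the 250 bases before the start in 8 of 26 list members with an entry (30.8%) and in 7 of 17 called ones (41.2%). Among all 11052 tested genes with an entry the share was 8.84%, and among those called higher 8.35%. The longer TCACGTGA, which contains it, was found in 5 of 26 members (19.2%), against 1.69% of all. The antioxidant core TGACNNNGC was also found in 8 of 26 members (30.8%), against 11.9% of all. All motifs were searched on either strand. A match is a description of the letters, not a bound site. Examples from RefSeq on GRCh38.p14 are given in gene orientation and end just before the RefSeq start, with each CACGTG in capitals. LAMP1 encodes a major lysosomal membrane protein (0.24 log2, adjusted p = 0.0208; 0.166 without replicate 1 and 0.139 without replicate 2), and its window (chr13:113296989-113297238, plus strand) holds 5 matches. GAA encodes the acid glucosidase that degrades glycogen (0.63 log2, adjusted p = 0.00531; 0.108 without replicate 1), and its window (chr17:80101331-80101580, plus strand) holds 2.
LAMP1: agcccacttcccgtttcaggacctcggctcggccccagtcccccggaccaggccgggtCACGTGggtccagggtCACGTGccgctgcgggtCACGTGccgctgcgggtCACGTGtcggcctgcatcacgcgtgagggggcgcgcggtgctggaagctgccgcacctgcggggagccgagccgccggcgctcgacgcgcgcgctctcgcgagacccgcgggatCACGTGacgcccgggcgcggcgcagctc
GAA: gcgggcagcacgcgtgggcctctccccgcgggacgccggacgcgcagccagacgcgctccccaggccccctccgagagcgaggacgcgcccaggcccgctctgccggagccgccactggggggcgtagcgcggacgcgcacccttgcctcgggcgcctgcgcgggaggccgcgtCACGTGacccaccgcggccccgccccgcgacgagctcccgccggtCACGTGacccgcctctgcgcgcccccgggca

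Genes that FOXO factors are known to drive rose in most cases. FOXO proteins are kept out of the nucleus by AKT downstream of insulin and RAS signalling, and in the nucleus they drive genes of cell cycle arrest and of feedback on the insulin pathway. Of 20 genes on the list of FOXO targets and insulin receptor signalling, 13 rose and 1 fell, with a median log2 fold change of 0.47 against -0.083 in WT cells. Leaving out the block left 5 higher and 0 lower, and leaving out replicate 1 left 9 and 0. PIK3IP1, an inhibitor of PI3K at the membrane, had 2.04, 3.71 and 5.67 CPM without inducer and 5.67, 20.2 and 18.6 CPM with it; treated replicate 1 was at the level of untreated replicate 3 (log2 fold change 1.93 with SE 0.18, adjusted p = 3.7e-06). The transcriptional coregulator gene CITED2 went from 47.8, 98.6 and 89.8 to 156, 205 and 196 CPM (log2 fold change 1.29 with SE 0.11, adjusted p = 1.31e-06). IRS2, an adaptor of the insulin receptor, went from 23.3, 34.7 and 28.3 to 35.7, 78.6 and 86.7 CPM (log2 fold change 1.14 with SE 0.13, adjusted p = 2.02e-05), while its relative IRS1 fell (84.3, 76.2 and 64.9 to 65.3, 55.2 and 48.5 CPM; -0.42 log2, adjusted p = 0.00226). KLHL24 (1.13 log2), the cyclin G2 gene CCNG2 (0.89) and the mitophagy kinase gene PINK1 (0.64) rose as well. The factor gene FOXO1 (0.00 log2) and the FOXO target TXNIP (0.01) were not called. The forkhead letters GTAAACA were found on either strand before the start in 2 of 19 listed genes and in 0 of the 13 called ones with an entry, against 2.04% of all.

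Antigen presentation genes rose by similar, small amounts. MHC class I molecules show peptides made by the immunoproteasome and carried by TAP to T cells. Of 18 list members, 13 rose and 1 fell, with a median log2 fold change of 0.38. The transporter gene TAP1 was the 1 called without the block, and 5 were called higher and 0 lower without replicate 1. TAP1 had 33, 40.0 and 36.8 CPM without inducer and 46.2, 53.9 and 59.8 CPM with it (log2 fold change 0.53 with SE 0.078, adjusted p = 0.000147), whereas its partner TAP2 fell (34.3, 35 and 32.8 to 25.4, 30.2 and 29.3 CPM; -0.28 log2, adjusted p = 0.029). HLA-B went from 66.8, 83.4 and 87.9 to 87.1, 128 and 132 CPM (0.53 log2), and HLA-C (0.42), HLA-E (0.40) and the proteasome activator gene PSME1 (0.36) rose too, with overlapping groups for HLA-B and HLA-C. HLA genes are alike and polymorphic, so reads may be shared among them. The transactivator gene NLRC5 was not called (0.18 log2).

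Genes from both the epithelial and the mesenchymal list rose. Of 17 tested of 30 epithelial and keratin genes, 8 were called higher and 0 lower (median 0.47; 1 with no block). KRT17, a keratin of basal and injured epithelium, had 0.679, 8.43 and 9.71 CPM without inducer and 1.61, 48.5 and 50.7 CPM with it (log2 fold change 2.38 with SE 0.13, adjusted p = 4.31e-08; 0.14 with no block). Replicate 1 was far below the others in both groups, and its treated level did not reach their untreated one. Plakoglobin (JUP), which joins desmosomes and adherens junctions to the cytoskeleton, went from 50.9, 80.9 and 79.8 to 128, 164 and 199.6 CPM (log2 fold change 1.22 with SE 0.081, adjusted p = 1.81e-07). The tight junction gene CLDN1 (0.71 log2) and the keratin genes KRT80 (0.82) and KRT19 (0.53) rose, while E-cadherin (CDH1) stayed at or below the floor of 3 counts in every library. Of 14 tested of 19 mesenchymal genes, 8 rose and 1 fell (median 0.49; 3 and 0 with no block, 5 and 1 without replicate 1). PDGFRB, a receptor of platelet-derived growth factor, had 0.617, 3.13 and 3.17 CPM without inducer and 4.26, 13.8 and 17.4 CPM with it (log2 fold change 2.37 with SE 0.17, adjusted p = 4.1e-07). The 2 fibroblast markers tested, PDGFRB and COL1A1, were both called higher (1 with no block, 1 without replicate 1). The fibroblast markers COL1A2, COL3A1 and DCN had 0 counts in all 6 NS1 libraries. The contractile genes MYL9, with 181, 182 and 198 CPM without inducer and 342, 433 and 477 CPM with it (log2 fold change 1.15 with SE 0.093, adjusted p = 9.83e-07), TAGLN (0.73 log2), TPM1 (0.55) and TPM2 (0.47) rose together, while smooth muscle actin ACTA2 fell (8.7, 8.14 and 7.12 to 5.87, 4.36 and 3.9 CPM; adjusted p = 0.00171). The factor gene SNAI1 rose (1.32 log2), and vimentin (VIM, -0.19), ZEB1 (-0.13) and SNAI2 (-0.16) were not called. SNAI1 lost its call without replicate 1 (adjusted p = 0.085).

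On the luminal urothelium list, ELF3, GATA3, FOXA1 and TFAP2A rose, while 2 fatty acid carriers fell. Of 9 tested of 15 luminal differentiation genes, 6 rose and 2 fell (median 0.41; 2 and 2 with no block). Beside ELF3, the factor gene GATA3 had 34.7, 28.6 and 29.3 CPM without inducer and 105, 60.3 and 69.8 CPM with it (log2 fold change 1.32 with SE 0.092, adjusted p = 2.68e-07). FOXA1 (0.56 log2, adjusted p = 0.000343) and TFAP2A (0.41, 0.000954) rose less. The 2 that fell were FABP4 and its relative FABP5, which went from 103, 73 and 80.8 to 58.1, 38.5 and 48.2 CPM (log2 fold change -0.83 with SE 0.08, adjusted p = 4.24e-06). The uroplakin gene UPK2 was not called (0.55 log2), and the other 6 listed genes did not pass the filter on low counts.

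The TGF-beta ligand gene TGFB2 rose steeply in NS1 cells, from 38.5, 58.4 and 65 to 106, 210.3 and 181 CPM (log2 fold change 1.6 with SE 0.092, adjusted p = 4.91e-08), while the receptor gene TGFBR2 fell from 227, 157 and 160.2 to 153, 98.4 and 83.3 CPM (log2 fold change -0.72 with SE 0.083, adjusted p = 1.78e-05). TGF-beta signals through SMAD proteins and is known to drive matrix genes. Whether the listed genes responded to it here was not tested. Of 20 tested response genes, 9 rose and 1, TGFBR2, fell (median 0.22; 2 and 0 with no block). The inhibitor of differentiation ID2 went from 13.1, 7.78 and 6.44 to 33.8, 15.5 and 15.1 CPM (log2 fold change 1.22 with SE 0.12, adjusted p = 4.99e-06), and the inhibitory SMAD6 from 9.81, 14.8 and 11.5 to 19.4, 21.1 and 23.1 CPM (log2 fold change 0.83 with SE 0.11, adjusted p = 6.92e-05). LTBP3, which stores latent ligand (0.51 log2), and the matrix protein TGFBI (0.60) rose too. YAP and TEAD, which respond to cell shape and tension, share TGFB2 among their targets. Of 22 targets, 9 rose and 3 fell (median 0.26; 1 and 2 with no block, 5 and 2 without replicate 1). The ectonucleotidase gene NT5E fell from 51.1, 65 and 59 to 24.5, 28.2 and 28.1 CPM (log2 fold change -1.11 with SE 0.077, adjusted p = 2.68e-07), and FJX1 fell as well (-0.66 log2). The adaptor AJUBA (0.62 log2), MYOF (0.64) and ANKRD1 (0.43) rose, and the classic target CCN1 was not called (-0.02).

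Genes of matrix breakdown moved in both directions. Of 18 tested proteases and plasminogen system genes, 5 rose and 8 fell (median -0.19; 2 and 1 with no block). The urokinase receptor gene PLAUR went from 41.7, 49.9 and 54.9 to 22.9, 25.1 and 21.7 CPM (log2 fold change -1.06 with SE 0.095, adjusted p = 2.46e-06; 0.0867 with no block). Its ligand urokinase (PLAU), which activates plasminogen, went from 142, 170.1 and 162 to 70.2, 111 and 98.8 CPM (log2 fold change -0.78 with SE 0.081, adjusted p = 8.9e-06), and the urokinase inhibitor SERPINE2 fell (-0.71 log2). In contrast to MMP1 and MMP3, the gelatinase gene MMP2 had 1.54, 3.71 and 2.6 CPM without inducer and 5.61, 14.7 and 14.7 CPM with it (log2 fold change 2.11 with SE 0.18, adjusted p = 1.33e-06; 0.0627 with no block), and collagenase MMP13 had 1.91, 1.38 and 0.962 CPM without inducer and 15.3, 4.19 and 4.98 CPM with it (log2 fold change 2.51 with SE 0.24, adjusted p = 3.63e-06). The inhibitor TIMP2 rose from 229, 276 and 278 to 351, 457 and 417 CPM (adjusted p = 3.95e-05).

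Among genes that anchor cells to the basement membrane, integrin subunits diverged. Of 23 integrin, laminin and hemidesmosome genes, 6 rose and 5 fell (1 and 3 with no block). The alpha 6 subunit gene ITGA6 fell from 316, 283 and 271 to 153, 152 and 124 CPM (log2 fold change -1.02 with SE 0.098, adjusted p = 4.24e-06), while that of beta 4, its partner in hemidesmosomes, rose from 5.56, 28.6 and 26.9 to 15.6, 52.6 and 54.5 CPM (log2 fold change 1.07 with SE 0.12, adjusted p = 1.21e-05; 0.656 with no block). The collagen receptor subunit ITGA2 (-0.77 log2) and the laminin 332 chain LAMB3 (-0.52) fell, and LAMB2, a chain of other laminins, rose (102, 128 and 123 to 154, 212 and 217 CPM; 0.72). Of 24 tested collagen genes and their enzymes, 6 rose and 4 fell (0 and 2 with no block, 2 and 3 without replicate 1). The cross-linking enzyme LOXL2 (0.56 log2), COL7A1 (0.39), COL18A1 (0.46) and the prolyl hydroxylase subunit P4HA2 (0.42) rose. Of 16 tested of 23 matricellular and calcification genes, 7 rose and 1 fell (2 and 0 with no block, 4 and 0 without replicate 1). Beside MGP, osteonectin (SPARC) had 108, 208 and 204 CPM without inducer and 184, 319 and 327 CPM with it (0.69 log2, adjusted p = 8.07e-06).

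Secreted signals of inflammation split into those that fell and those that rose. Of 28 tested cytokine, chemokine and NF-kB target genes, 8 rose and 9 fell (0 and 1 with no block, 4 and 6 without replicate 1). IL11, a cytokine of the interleukin 6 family, fell from 47.3, 60.9 and 59.8 to 19.1, 19.9 and 18.5 CPM (log2 fold change -1.53 with SE 0.088, adjusted p = 4.91e-08). IL1B fell from 23.4, 39.1 and 43.8 to 11.5, 15.4 and 13.9 CPM (log2 fold change -1.33 with SE 0.11, adjusted p = 8.02e-07; 0.215 with no block), and the neutrophil chemoattractant CXCL8 from 92.1, 96.8 and 99.7 to 30.3, 43.8 and 49.9 CPM (log2 fold change -1.25 with SE 0.11, adjusted p = 1.33e-06; 0.186 with no block). IL1A (-0.81 log2) and CSF3, given above, fell too, while the macrophage growth factor gene CSF1 rose from 8.83, 13.4 and 13.3 to 16.8, 25.8 and 24.5 CPM (log2 fold change 0.92 with SE 0.097, adjusted p = 9.18e-06; 0.0839 with no block). Groups did not overlap for IL11, IL1B, CXCL8 and CSF1. Tumour necrosis factor (TNF) and the inducible cyclooxygenase gene PTGS2 were not called (0.55 and 0.31 log2), although PTGS2 was without replicate 2 (adjusted p = 0.0439) or replicate 3 (0.0305).

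The list of complement and coagulation genes was split between rises and falls. Of 16 tested genes, 5 were called higher and 5 lower (1 and 1 with no block, 5 and 2 without replicate 1). C1R, a protease of the first complement component, had 3.77, 3.85 and 3.27 CPM without inducer and 7.07, 12.7 and 13 CPM with it (log2 fold change 1.51 with SE 0.18, adjusted p = 2.26e-05). Its partner C1S (1.77 log2), C3 (1.21), factor B (CFB, 1.55) and clusterin (CLU, 1.06) also rose. Groups overlapped for these 4, with replicate 1 lowest in both groups. With TFPI2, the complement decay factor CD55, the terminal complement inhibitor CD59, tissue factor (F3) and thrombomodulin (THBD) fell, with log2 fold changes of -0.49, -0.25, -0.65 and -0.40. Of these, CD59 lost its call without any one replicate, and F3 and THBD without replicate 1. Among angiogenic factors more fell than rose: of 16 tested, 8 fell and 1, VEGFB (0.32 log2), rose (median -0.20; 0 higher and 1 lower with no block, 0 and 6 without replicate 1, 5 lower by DESeq2). Beside ESM1, endothelin 1 (EDN1) went from 15.6, 32 and 36.3 to 6.03, 24.5 and 20.6 CPM (log2 fold change -0.80 with SE 0.13, adjusted p = 0.000487; 0.371 with no block), and the stem cell factor gene KITLG (-0.53 log2), placental growth factor (PGF, -0.50) and VEGFC (-0.42) fell. VEGFA itself was not called (-0.06 log2).

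Most genes of ribosome assembly fell. Ribosome biogenesis factors transcribe, modify and fold ribosomal RNA in the nucleolus and are known targets of MYC and of growth signals. All 34 listed genes had a log2 fold change under 0, and 28 of them were called lower (median -0.41, against 0.021 in WT cells). Without the block 11 were called, and 14 were without replicate 1. Nucleolin (NCL) had 805, 797 and 819.7 CPM without inducer and 569, 565 and 576 CPM with it (log2 fold change -0.50 with SE 0.069, adjusted p = 9.17e-05), with untreated libraries within a narrow range and treated ones well below. RRS1 fell from 47.1, 46.1 and 46 to 28.1, 27 and 33.3 CPM (log2 fold change -0.66 with SE 0.082, adjusted p = 3.41e-05), BOP1 from 143, 118 and 119 to 92.3, 73.9 and 78.1 CPM (log2 fold change -0.64 with SE 0.07, adjusted p = 1.37e-05), and the pseudouridine synthase DKC1 from 182, 144 and 151 to 109.8, 96.7 and 102 CPM (log2 fold change -0.63 with SE 0.07, adjusted p = 1.52e-05). The nucleolar genes PNO1 (-0.58 log2) and NOLC1 (-0.52) fell likewise. The genes of RNA polymerase I POLR1A (-0.15) and POLR1C (-0.10) and its factor RRN3 (-0.07) were not called. The proteins of the ribosome itself behaved otherwise: of 56 cytosolic ribosomal protein genes none was called, with the block, with no block or without any one replicate, and their log2 fold changes lay between -0.042 and 0.14 (median 0.049; 0.07 in WT cells).

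Most splicing factors fell, and heat shock genes moved in both directions. All 32 listed splicing factors had a log2 fold change under 0, and 23 were called lower (median -0.25; 4 with no block, 4 without replicate 1, 9 without replicate 2). HNRNPH1, which binds G-rich RNA, went from 167, 159 and 159.7 to 118, 111 and 95.7 CPM (log2 fold change -0.58 with SE 0.079, adjusted p = 8.13e-05), and HNRNPA2B1 from 648, 597 and 619 to 503, 424 and 444 CPM (log2 fold change -0.45 with SE 0.07, adjusted p = 0.000287). Of 17 tested heat shock genes, 4 rose and 8 fell (2 and 3 with no block, 2 and 2 without replicate 1, 4 and 4 without replicate 2). The chaperonin HSPD1, which works in mitochondria, went from 570.3, 513 and 546 to 412, 361 and 368 CPM (log2 fold change -0.51 with SE 0.072, adjusted p = 0.000109). The small heat shock gene HSPB1 (90.4, 93.5 and 107 to 119, 152 and 172 CPM; 0.59 log2) and the co-chaperone DNAJB4 (0.84) rose, as did HSPA1A (0.38) and its near-identical copy HSPA1B (0.36). Of 20 cytosolic tRNA synthetase genes, 7 fell and 2, QARS1 and WARS1, rose (1 and 0 with no block, 3 and 0 without replicate 1, 0 higher without replicate 2 and 0 without replicate 3). Among those that fell were FARSB (-0.56 log2) and VARS1 (-0.48). Of 31 proteasome subunit genes, 6 fell, PSMD2 most (863, 807 and 867 to 683, 599 and 602 CPM; -0.43 log2), and none rose (0 lower with no block, 2 without replicate 1, 3 without replicate 2, 10 with library totals).

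**Figure D3:**
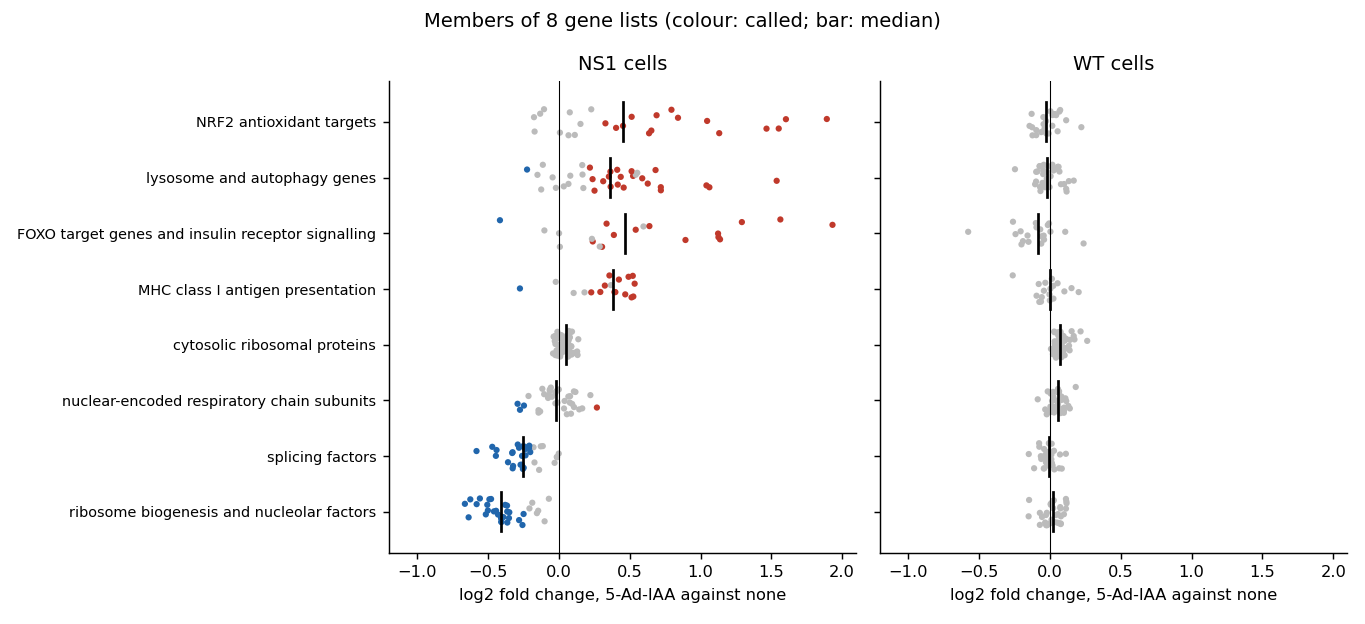
Log2 fold change with 5-Ad-IAA (x axis) of every tested member of 8 lists in NS1 cells (left) and in WT cells (right), red where called higher, blue where called lower and grey where not called, with a black bar at the list median. In NS1 cells the medians run from 0.47 for FOXO targets to -0.41 for ribosome biogenesis, with ribosomal proteins packed around 0; in WT cells no point is called and all medians lie near 0.

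Among regulators of apoptosis, 3 pro-apoptotic genes rose and 3 survival genes fell, along with the pro-apoptotic PMAIP1. Of 14 tested BCL2 family genes, 3 rose and 4 fell (2 and 2 with no block, 2 and 2 without replicate 1). Beside BMF, the BIM gene BCL2L11 went from 9.69, 7.92 and 8.46 to 14.8, 11.9 and 13.1 CPM (log2 fold change 0.61 with SE 0.10, adjusted p = 0.000579), and the third that rose was BOK (0.32 log2). The survival gene MCL1 fell from 256, 255 and 263 to 191, 183 and 181 CPM (log2 fold change -0.48 with SE 0.069, adjusted p = 0.000144), and BCL2 from 16.1, 14 and 12.5 to 6.39, 8.99 and 7.31 CPM (log2 fold change -0.94 with SE 0.16, adjusted p = 0.000558; 0.0513 without replicate 1). The BH3-only gene PMAIP1 fell (-0.48 log2), as did the survival gene BCL2A1 from 1.05, 0.727 and 0.385 to 0.26, 0.0873 and 0.083 CPM (-2.20 log2; adjusted p = 0.0698 without replicate 1). The change of BCL2A1 rests on few counts. BCL2L1 was not called (0.11 log2). Targets of p53 moved both ways: of 25 tested, 5 rose and 6 fell (4 and 2 with no block, 4 and 2 without replicate 1, 8 and 7 without replicate 3). The kinase gene PLK2 had 181, 181 and 169.8 CPM without inducer and 369, 358 and 355 CPM with it (log2 fold change 1.02 with SE 0.067, adjusted p = 1.81e-07) and TP53INP1 rose by 1.35 log2, while the nuclease gene AEN fell from 52.8, 48.1 and 49.6 to 25.9, 30.8 and 30.1 CPM (log2 fold change -0.80 with SE 0.085, adjusted p = 9.78e-06). CDKN1A, which encodes p21, was not called (0.32 log2, adjusted p = 0.0661), although it was without replicate 2 (0.0158) or replicate 3 (0.00219).

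More genes of the ATF4 programme fell than rose. ATF4 is the factor that responds to amino acid shortage and to other stresses. Of 24 tested targets, 4 rose and 8 fell, but with no block 0 and 0 were called, 1 and 0 without replicate 1, and 2 and 9 without replicate 2. The serine synthesis gene PSAT1 went from 51.3, 79.6 and 78 to 29.5, 63.4 and 59.1 CPM (log2 fold change -0.50 with SE 0.088, adjusted p = 0.000638; 0.334 with no block). The glycine gene SHMT2 (-0.40 log2) and the pseudokinase gene TRIB3 (-0.47) also fell, whereas NUPR1, a stress-induced nuclear protein, rose from 0, 0.291 and 0.192 to 0.364, 1.57 and 2.08 CPM (2.98, adjusted p = 0.000307), a change that rests on few counts. ATF4 targets DDIT3 (-0.06) and ASNS (-0.22) were not called.

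Few genes of the respiratory chain were called. Of 35 nuclear genes, 1 rose and 3 fell (median -0.02), with 0 and 0 called with no block, 0 and 0 without replicate 1, and 1 and 0 without replicate 2. None of the 13 mitochondrially encoded subunits was called, although all had a positive log2 fold change (median 0.23). Their pairs disagreed, with medians of 0.63, 0.34 and -0.33 in pairs 1, 2 and 3, and without replicate 3 all 13 were called higher. Of 24 glycolysis genes, 1 rose, ALDOC (0.67 log2), and 3 fell, hexokinase HK2 most (70.1, 90.2 and 93.2 to 40.7, 71.1 and 45.8 CPM; -0.71). Those called higher and lower were 0 and 0 with no block, 1 and 1 without replicate 1, 1 and 1 without replicate 2, and 4 and 3 without replicate 3.

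The shares of lipid genes called were below or close to the 25.9% of all genes. Of 24 cholesterol genes, 4 rose and 1 fell, a share of 20.8% against 25.9% of all genes. There were 1 and 0 with no block, 3 and 0 without replicate 1, 1 and 0 without replicate 2, and 3 and 0 without replicate 3, while 4 were called lower with library totals and also in NS1 libraries alone. The largest change in that list was in the sterol reductase gene TM7SF2, with 14.6, 20.4 and 21.6 CPM without inducer and 28.1, 37.5 and 46.6 CPM with it (log2 fold change 0.98 with SE 0.086, adjusted p = 2.03e-06). Of 15 tested of 16 genes of fatty acid synthesis and desaturation, 2 rose and 2 fell (26.7% called), with 1 and 0 called with no block, 1 and 0 without replicate 1, and 1 and 1 without replicate 2. Malic enzyme ME1, which supplies NADPH, rose (0.64 log2, adjusted p = 4.56e-05), as did the desaturase gene SCD (0.40, 0.00373), while the elongase gene ELOVL6 (-0.37, 0.0154) and the acyl-CoA synthetase gene ACSL4 (-0.28, 0.0156) fell.

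Few members were called in the lists of the endoplasmic reticulum and the cilium. Of 22 chaperone genes of the endoplasmic reticulum, 1 rose and 2 fell (0 and 0 with no block, 0 and 0 without replicate 1, 0 and 0 without replicate 2), and the central chaperone HSPA5 was not called (0.09 log2). Of 26 cilium genes 3 rose and none fell (1 higher with no block, 0 without replicate 1). Of 26 Golgi coat genes 4 rose and 2 fell (0 and 0 with no block, 1 and 0 without replicate 1, 2 and 1 without replicate 2). Of 10 metallothionein and zinc genes none was called, with 1 higher without replicate 1, 1 lower without replicate 2 and 1 lower without replicate 3.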

How the data were processed

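The authors deposited 1 table of gene counts, whole numbers with no normalization, for 60603 genes in 12 libraries. Reads were handled with STAR 2.7.3a and featureCounts 1.6.4 on hg38, per the submitters' processing notes. The annotation release and the use of strand are not given in the sources used here. Symbols came from a name table (60306 identifiers matched), and positions from GENCODE 29 (GRCh38), with start and end only where the identifier has the same version.

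The counts were fitted with edgeR 4.0.16 in R 4.3.3: filterByExpr (17775 genes), TMM factors, and 1 quasi-likelihood model. All 12 libraries entered it, with a term per replicate number within each line and an inducer term per line. P-values were adjusted by Benjamini and Hochberg's method across the genes tested, with a threshold of 0.05, and tests were two-sided. The SE is the log2 fold change divided by the square root of F. Library totals ran from 10593934 to 20266996 counts, which limit the precision of low genes. The floor of 3 counts covers counting error only. Alternatives were no block, a block shared by both lines, the NS1 libraries alone, other scalings and filters, DESeq2 1.42.0 and leaving out each replicate, and, added after seeing the data, protein-coding genes only. The same fit was also run on simulated counts with known changes, and the outcome is not reported here.

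To see whether numbers pair libraries, deviations from the group means were correlated between groups: 0.687, 0.358 and 0.352 for numbers 1, 2 and 3. Untreated replicate 2 correlated with treated replicate 3 at 0.354, and untreated replicate 3 with treated replicate 2 at 0.259. The values set replicate 1 apart but cannot tell whether numbers 2 and 3 are pairs, because matched and crossed values are alike. Pairing by number was set in advance and did not follow from these values. No pair of libraries within a group looked like 1 library deposited again, the lowest chi-square per degree of freedom being 3.03.

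The members and lists were chosen with earlier results of these data known. Named are HRAS and the 15 highest and 15 lowest called genes averaging 1 CPM or more in NS1 libraries, with a symbol and the same direction in all 3 pairs. Named too are the 10 largest gains and 10 largest losses in mean CPM among called genes with a symbol and the same direction in all 3 pairs. Up to 6 called members per list by adjusted p, and members given as not called, were added. Other called members (HMOX1, NQO1, SQSTM1, LAMP1, GAA, CD55, CD59, F3, THBD, BOK, QARS1 and CUL1) and members against their list's direction were named after their values were seen. Some genes that these rules name are not reported here.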

Additional observations from a re-analysis of the deposited data

Results flagged for a closer look

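The inducer effect differed between NS1 and WT cells for 2495 genes by the interaction test in edgeR with the replicate block, and for 4 genes with no block. Of the 50 genes named by the rules on the largest changes, 37 had an interaction past the threshold, with adjusted p from 3.52e-07 for ESM1 to 0.0493 for TUBB. These genes were chosen for the size of their change in NS1 cells, so a difference from WT cells is in part fixed by the choice.

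Among the highest genes the interaction (log2, NS1 minus WT) was 5.30 for MGP, 4.35 for IDO1, 3.29 for DIO2, 2.54 for C12orf60, 3.49 for PECAM1, 3.19 for ELF3, 3.21 for BMF, 3.24 for ANK1, 3.10 for RARRES1 and 3.25 for SLC4A4. Among the lowest it was -3.89 for ESM1, -2.37 for CSF3, -2.30 for TMEM108-AS1, -2.05 for COL17A1, -2.35 for ACP7, -2.23 for IL13RA2, -2.00 for MMP1, -2.06 for FABP4, -1.86 for GK3, -2.07 for MMP3, -1.87 for TFPI2, -1.64 for FZD8, -1.71 for COL13A1 and -1.90 for GNGT1. For the abundant genes that gained it was 1.17 for FTH1, 1.17 for BEST1, 0.475 for KRT7, 0.504 for MYH9 and 0.740 for AHNAK. For those that lost it was -0.541 for TGM2, -0.660 for TUBA1B, -0.645 for TUBA1B-AS1, -0.459 for HSP90AA1, -0.321 for TUBB, -0.709 for CD44, -0.455 for TUBA1C and -0.554 for HMGA1. The interactions of the other 13 genes were not past the threshold. Their adjusted p was 0.116 for RASGRP1, 0.307 for FPR3, 0.272 for BMF-AS1, 0.0785 for SLC12A8, 0.125 for PHOSPHO1 and 0.127 for RNF152. Among abundant genes it was 0.307 for EEF1A1, 0.295 for EEF1A1P5, 0.288 for EEF1A1P6, 0.0867 for FN1, 0.138 for FLNA, 0.055 for HSPA8 and 0.0632 for HSP90AB1.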

How the results depend on the processing

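The count of genes called in NS1 cells (4596; 2318 higher, 2278 lower) was within 1.5 times under these alternatives: NS1 libraries alone (5876), RLE size factors (4610), library totals (4806), no low-count filter (4730), at least 10 counts in every library (4273), protein-coding genes only (4048, chosen after seeing the data), and without replicate 2 or 3. With no replicate block it was 1093 (490 higher, 603 lower), with 1 block per number shared by both lines 2421 (1156 and 1265), and by DESeq2 2978 (1484 and 1494). Leaving out each replicate in turn gave 1822 to 4676 calls, 1008 to 2465 higher and 814 to 2211 lower, the lowest without replicate 1.

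The interaction count (2495; 1240 higher, 1255 lower) became 4 with no replicate block (2 and 2), 634 with the shared block (304 and 330) and 1494 by DESeq2 (725 and 769), and 417 to 3725 when replicates were left out (241 to 1961 higher, 176 to 1764 lower). In WT cells, where 0 genes were called, 4 were called with no low-count filter, all 4 higher, and 0 to 437 when replicates were left out (0 to 167 higher, 0 to 270 lower).

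Of 315 single genes followed through the alternatives, 283 were called, and none of these changed direction where it had a value. Some had none with at least 10 counts in every library, protein-coding genes only, the NS1 libraries alone or DESeq2. Calls were lost for 178 with no replicate block, 78 with the shared block, 91 without replicate 1, 47 without replicate 2, 26 by DESeq2, 14 with library totals, 10 without replicate 3, 6 with at least 10 counts in every library, 5 with RLE size factors and 4 with no low-count filter. The cause was not tested. Among genes not called, signs turned for FOXO1 (-0.00025 with no replicate block, -0.0040 in NS1 libraries alone, -0.058 with library totals, -0.0011 with no low-count filter), TXNIP (-0.014 with no replicate block, -0.013 with the shared block, -0.053 with library totals) and EGFR (-0.0097 with library totals). Leaving out each replicate gave log2 values of -0.044 to 0.090 for FOXO1, -0.10 to 0.12 for TXNIP, -0.050 to 0.032 for CCN1, -0.16 to 0.62 for PTGS2, -0.13 to 0.10 for VEGFA, -0.14 to 0.087 for DDIT3, -0.017 to 0.098 for EGFR and -0.095 to 0.042 for RBX1. Genes near 1 CPM rest on few counts: 5.25% and 2.42% of genes under 1 CPM were called higher and lower.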

Other observations

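Core and linker histone genes moved in both directions. Of 18 tested genes, 9 were called higher and 7 lower (3 and 2 with no block, 7 and 4 without replicate 1). Among those that rose were H2AC6 from 13.7, 24 and 26.7 to 38.7, 42.7 and 50.2 CPM (log2 fold change 1.07 with SE 0.11, adjusted p = 8.31e-06) and the linker histone gene H1-2 from 6.67, 11.4 and 10.7 to 10.9, 26.4 and 34 CPM (log2 fold change 1.22 with SE 0.15, adjusted p = 3.41e-05). H2BC5 (0.98 log2) and H4C14 (0.81) rose too. Among those that fell were the variant genes H2AZ1 from 250.3, 287 and 298 to 165, 169 and 191 CPM (log2 fold change -0.67 with SE 0.081, adjusted p = 3.1e-05) and H2AX from 154, 173 and 177 to 100.1, 116 and 129 CPM (log2 fold change -0.55 with SE 0.07, adjusted p = 5e-05). Histone genes of 1 class are near copies, so reads may be shared among them, and poly(A) selection keeps few of their usual transcripts.

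Guidance genes and receptors also moved both ways. Of 22 tested axon guidance genes, 6 rose and 6 fell (3 and 0 with no block). SEMA7A, a membrane-anchored semaphorin, fell from 86.5, 144 and 149 to 52, 97.4 and 86.5 CPM (log2 fold change -0.69 with SE 0.074, adjusted p = 1.09e-05), and SEMA3A and the plexin gene PLXNA2 fell too (-1.05 and -0.97 log2). The plexin gene PLXNB1 rose from 40.8, 41.2 and 44.7 to 58.2, 66.5 and 69.1 CPM (log2 fold change 0.61 with SE 0.073, adjusted p = 2.77e-05) and netrin 4 (NTN4) by 0.65 log2. Of 26 tested receptor tyrosine kinase and ERBB ligand genes, 7 rose and 5 fell (4 and 0 with no block, 5 and 1 without replicate 1). The receptor ERBB3 had 0.494, 0.654 and 0.673 CPM without inducer and 0.884, 4.02 and 2.49 CPM with it (log2 fold change 1.93 with SE 0.34, adjusted p = 0.00068), and the ligands TGFA (-0.45 log2) and HBEGF (-0.44) fell. EGFR was not called (0.05 log2).

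In the kynurenine pathway, QPRT, which makes a precursor of NAD, rose with IDO1, from 51.6, 229 and 239 to 135, 441 and 487 CPM (log2 fold change 1.11 with SE 0.11, adjusted p = 5.12e-06; 0.345 with no block). KMO, the kynurenine monooxygenase, went from 4.94, 4.36 and 4.33 to 9.88, 7.94 and 12.5 CPM (log2 fold change 1.12 with SE 0.16, adjusted p = 9.82e-05). Of 19 sphingolipid enzyme genes, 6 rose and 3 fell (47.4% called; 0 and 0 with no block, 3 and 1 without replicate 1). Sphingosine kinase SPHK1 fell from 61.8, 70.9 and 80.4 to 36.2, 39.5 and 49.9 CPM (log2 fold change -0.77 with SE 0.08, adjusted p = 8.9e-06), while the lysosomal ceramidase gene ASAH1 rose (0.47 log2). Of 17 tested solute transporter genes, 3 rose and 5 fell (47.1% called; 2 and 2 with no block, 3 and 2 without replicate 1). The phosphate transporter SLC20A1 fell from 219, 214 and 205 to 144, 145 and 142 CPM (log2 fold change -0.57 with SE 0.069, adjusted p = 3e-05). Of 17 SCF ubiquitin ligase genes 6 fell and none rose (2 with no block, 2 without replicate 1), among them the F-box genes CCNF (-0.65 log2) and SKP2 (-0.60), which act in the cell cycle. The scaffold gene CUL1 fell (-0.26 log2). The core subunit genes SKP1 (0.12 log2) and RBX1 (-0.04), which are shared by SCF ligases, were not called.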
